A study of Mus musculus with 5 samples.

Results

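NF-kB is a family of dimeric transcription factors, and the 10 genes described here encode 4 of its subunits (Nfkb1, Nfkb2, Rel and Relb) and 6 proteins that restrain or modify it (Nfkbia, Nfkbie, Nfkbiz, Bcl3, Tnfaip3 and Tnip1). They were taken as a list of symbols, all 10 were found in each of the 4 deposited comparison tables, and those tables hold 21590 genes. Gene expression was measured by RNA sequencing of whole lungs from mice of a mixed 129S6, C57BL/6 and BALB/c background, wild type or lacking Cldn4, which encodes the tight junction protein claudin-4. There were 5 groups: wild type without ventilation (WT_noVILI), knockout without ventilation (KO_noVILI), wild type after 2 h of injurious ventilation at 40 cmH2O (WT_VILI), and knockouts after the same ventilation with injury similar to wild type (KO_VILIlow) or higher (KO_VILIhigh). The design text gives duplicates, and only the authors' comparison tables were used here, so values are given per group, without a spread between animals. Both ventilated knockout groups were formed by the injury of the animals, and age is not given in the labels.

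In resting cells NF-kB dimers are held in the cytoplasm by inhibitory IkB proteins. Cytokines such as TNF and IL-1, microbial products and mechanical stress activate a kinase complex that marks IkB for destruction, and the freed dimers enter the nucleus and bind short DNA elements called kappaB sites. Among the genes switched on are those of the inhibitors themselves, which makes the pathway self-limiting. In the lung, NF-kB is known for driving cytokine, chemokine and adhesion molecule genes in macrophages, epithelium and endothelium.

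The promoters of the members are where kappaB sites of such genes are often found. They are printed for 3 members that rose in ventilated wild type lungs, Nfkbia, Tnfaip3 and Rel, and for Tnip1, which passed no threshold in any comparison. Each line gives the 250 bases before the annotated start site, 5′ to 3′ on the gene's strand, from RefSeq on GRCm38.p6, another build than the mm9 used by the authors. Capitals mark matches to the kappaB consensus on either strand, and overlapping matches run together.
Nfkbia, chr12:55492648-55492897, minus strand: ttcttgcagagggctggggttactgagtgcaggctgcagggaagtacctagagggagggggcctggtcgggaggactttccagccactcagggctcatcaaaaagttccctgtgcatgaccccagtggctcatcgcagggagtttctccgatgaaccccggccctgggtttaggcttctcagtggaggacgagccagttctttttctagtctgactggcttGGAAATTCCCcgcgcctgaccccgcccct
Tnfaip3, chr10:19015411-19015660, minus strand: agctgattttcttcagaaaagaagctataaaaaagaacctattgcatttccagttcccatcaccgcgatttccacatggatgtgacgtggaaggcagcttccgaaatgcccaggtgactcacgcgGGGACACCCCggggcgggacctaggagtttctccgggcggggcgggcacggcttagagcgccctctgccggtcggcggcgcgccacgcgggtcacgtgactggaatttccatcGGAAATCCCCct
Rel, chr11:23770970-23771219, minus strand: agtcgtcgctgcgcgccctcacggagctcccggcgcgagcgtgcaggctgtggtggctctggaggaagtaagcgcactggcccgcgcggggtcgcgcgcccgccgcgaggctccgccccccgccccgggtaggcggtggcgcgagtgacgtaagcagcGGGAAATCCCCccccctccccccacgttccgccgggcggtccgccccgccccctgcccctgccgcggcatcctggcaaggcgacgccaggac
Tnip1, chr11:54962941-54963190, minus strand: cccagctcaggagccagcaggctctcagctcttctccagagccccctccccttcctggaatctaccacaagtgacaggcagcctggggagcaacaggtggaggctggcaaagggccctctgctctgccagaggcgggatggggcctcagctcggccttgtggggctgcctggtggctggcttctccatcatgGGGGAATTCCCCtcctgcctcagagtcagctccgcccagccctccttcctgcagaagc

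Promoter windows, from 250 bases before to 50 after a start site, were available for 7 of the 10 members, Nfkb2, Rel, Nfkbia, Nfkbie, Bcl3, Tnfaip3 and Tnip1. Nfkb1, Relb and Nfkbiz had no window in the sequences used and were not searched. The consensus was GGGRNNYYCC, where R is A or G, Y is C or T and N is any base. All 7 genes held at least 1 match to the kappaB consensus, in 9 of their 10 windows. The same consensus was matched in 8.49 percent of 32544 mouse promoter windows of that length, and in 10.8 percent of 16469 genes of the tables that have a window. The match of Nfkbia, GGAAATTCCC, began 29 bases before the start site, and that of Bcl3, GGGAAGTCCC, 3 bases into the transcript. Tnfaip3 held GGGACACCCC at 125 and GGAAATCCCC at 12 bases before its first start site, and no match in its other window. In Tnip1 the 3 matches overlap within 1 run of 12 bases, and in Rel 2 matches overlap in a run of 11. Windows with at least 3 matches, as in Tnip1 and the first window of Nfkb2, made up 0.187 percent of all windows. The Nfkb2 site GGGACTTTCC lies in 2 overlapping windows and is 1 site. Nfkbie held GGGGGATTCC, beginning 106 bases before its start site. A match describes letters only. It does not show binding, and Tnip1 held 3 overlapping matches without passing any comparison below. Neither of 2 relatives outside the list, Rela and Nfkbib, held a match in its window.

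**Figure D1:**
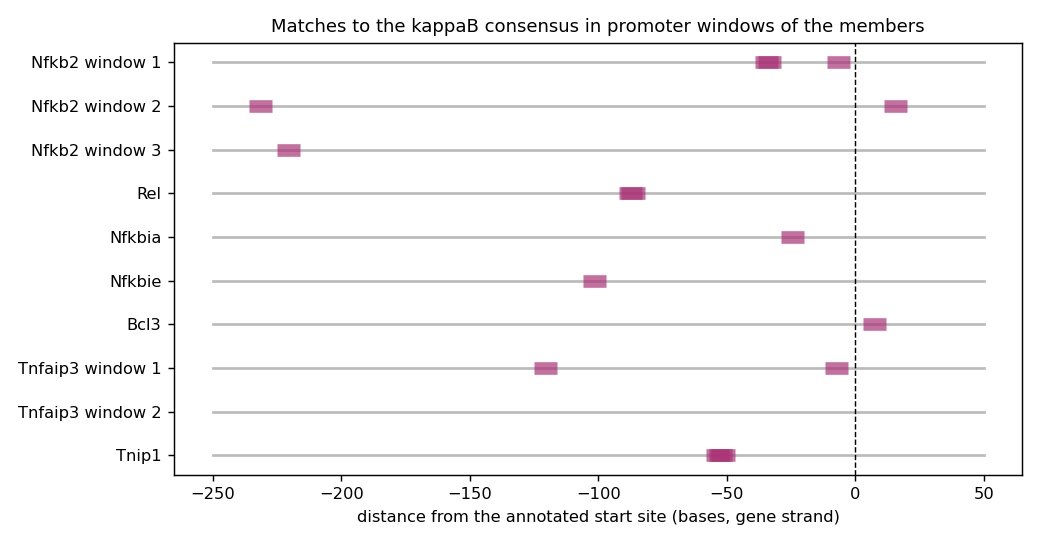
Matches to the kappaB consensus (bars) along the promoter windows of the 7 members with a RefSeq window, by distance in bases from the annotated start site (dashed line). All but the second Tnfaip3 window hold at least 1 match, most of them within 125 bases of the start site.

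Before the members, 3 facts about the groups bear on every comparison. Cldn4 stood at a rebuilt 8.98 CPM (read counts scaled to library size) in WT_noVILI and 140 CPM in WT_VILI, and at or below 0.14 CPM in the 3 knockout groups. Sex-linked genes separated ventilated from unventilated groups: the female-specific transcript Xist was at 890 and 505 CPM in WT_noVILI and KO_noVILI and at 2.56 to 6.13 CPM in the ventilated groups, while all 4 Y-linked markers were under 0.5 CPM in both unventilated groups only. Sex and ventilation therefore cannot be told apart in any comparison or contrast that sets ventilated against unventilated groups. Lung identity was clear, with 10 of 10 alveolar and airway markers at 20.7 CPM or more in every group. Fewer cells of a type and less RNA per cell cannot be told apart in whole lung.

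Group levels of the members were rebuilt by solving each gene's deposited fold change and mean for both groups, as CPM, which is not corrected for gene length, so levels are compared between groups and not between genes. The tables were normalized separately, so ratios of these levels differ from the deposited fold changes, which carry the tests. For Nfkbie, KO_VILIhigh was 1.61-fold above WT_VILI in rebuilt levels and 1.79-fold in the deposited comparison. KO_VILIhigh had the highest rebuilt level for all 10 members, and the span from the lowest to the highest group ran from 1.08-fold for Nfkb1 to 5.95-fold for Nfkbiz. The share of all genes with their highest level in KO_VILIhigh was not counted. Tnfaip3 spanned 4.96-fold, Bcl3 3.35-fold, Relb 2.79-fold, Nfkbia 2.62-fold, Rel 2.60-fold, Nfkb2 1.94-fold, Nfkbie 1.61-fold and Tnip1 1.25-fold. Which of these steps passed a test is given for each comparison below.

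**Figure D2:**
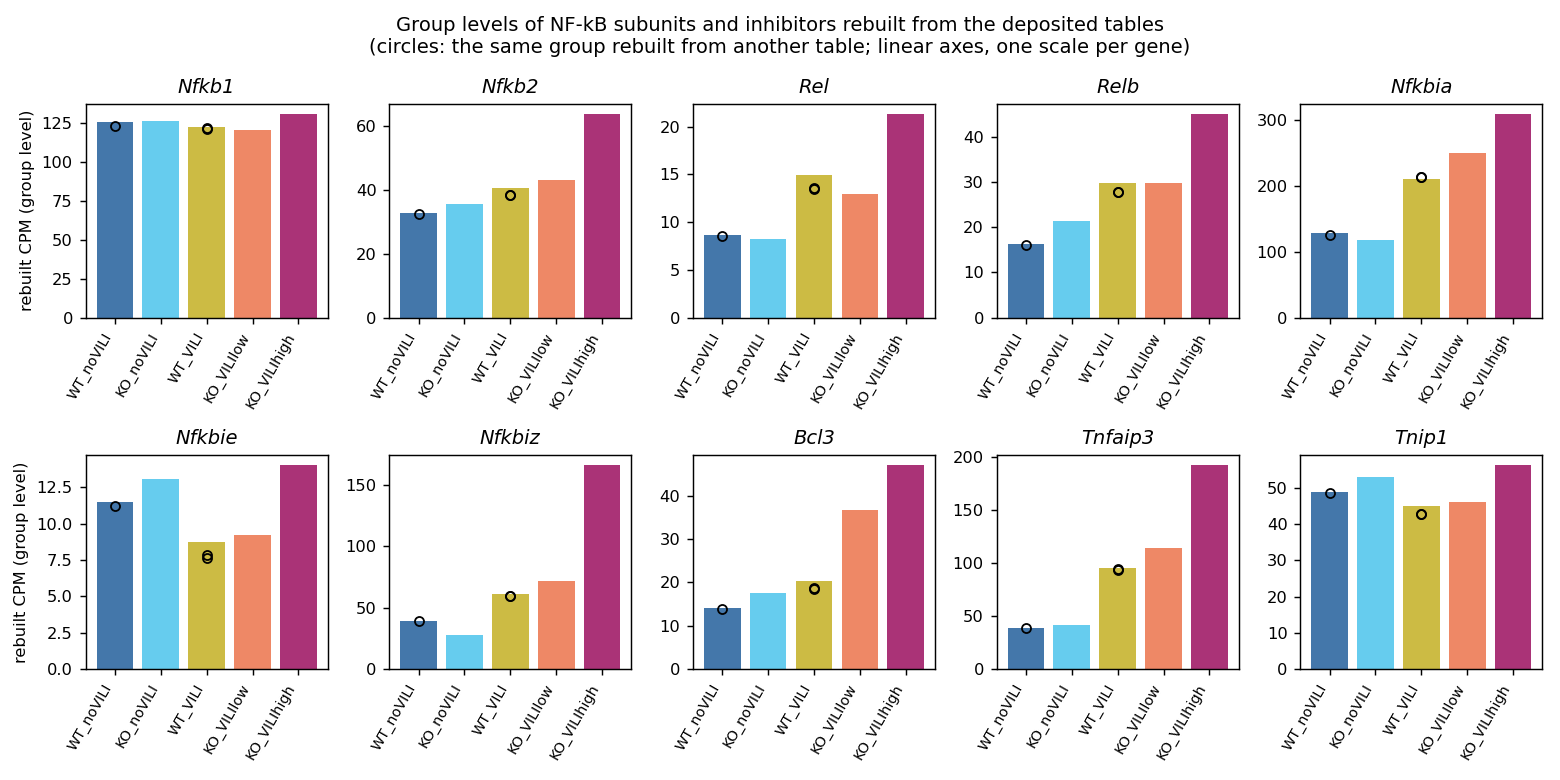
Rebuilt level in CPM of each member in the 5 groups (bars, linear axes from 0, 1 scale per gene); circles show WT_noVILI and WT_VILI rebuilt from the other tables that hold them. Nfkbiz ranges from 27.9 CPM in KO_noVILI to 166 CPM in KO_VILIhigh, while Nfkb1 stays between 121 and 131 CPM.

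After ventilation, wild type lungs had higher transcripts of 5 of the 10 members at a threshold of 0.05 on the adjusted p per the authors' deposited table, Tnfaip3, Relb, Rel, Nfkbia and Nfkbiz, and none was lower. Over all genes of that comparison, 4.85 percent were called higher and 9.09 percent in either direction. At an unadjusted p under 0.05 there were 6 members, against 17.9 percent of all genes, the further one being Bcl3. The members' median log2 fold change was 0.59 per the authors' deposited table, against 0 over all genes. The rises were modest, from 1.56-fold for Nfkbiz to 2.46-fold for Tnfaip3.

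Among the subunits, Relb encodes the transactivating partner of the noncanonical pathway. Its rebuilt level was 16.2 CPM in WT_noVILI, 21.3 in KO_noVILI, 29.9 in WT_VILI, 29.7 in KO_VILIlow and 45.2 in KO_VILIhigh. All 3 ventilated groups stood above both unventilated groups, with WT_VILI and KO_VILIlow nearly level. In ventilated wild type lungs Relb rose by 0.88 on the log2 scale per the authors' deposited table (edgeR, adjusted p = 0.00217). Rel encodes c-Rel, a subunit best known from lymphocytes and myeloid cells, and followed the same grouping at 8.70, 8.20, 15.0, 12.9 and 21.4 CPM in the same order of groups. For Rel the authors' deposited table gave a log2 fold change of 0.78 with an adjusted p of 0.0454, just inside the threshold.

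Neither precursor gene passed the threshold in any of the 4 deposited comparisons. Nfkb1 encodes p105, which is processed to p50, and its rebuilt levels of 126, 126, 123, 121 and 131 CPM were nearly flat over the 5 groups. It stood at -0.04 in ventilated wild type lungs per the authors' deposited table (edgeR, adjusted p = 1). Nfkb2 encodes p100, the precursor of p52, and its levels were 32.9, 35.6, 40.6, 43.2 and 63.9 CPM, with KO_VILIhigh apart from the rest. Ventilated wild type lungs differed by 0.30 for Nfkb2 per the authors' deposited table, which did not pass (edgeR, adjusted p = 0.401). Rela, which encodes the main transactivating subunit p65 and lies outside the list, rose by 0.47 per the authors' deposited table (edgeR, adjusted p = 0.0166), from 134 to 185 CPM.

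Of the classical inhibitors, Nfkbia encodes IkB-alpha, whose resynthesis ends a pulse of NF-kB activity. Its levels were 128, 118, 210, 249 and 309 CPM in WT_noVILI, KO_noVILI, WT_VILI, KO_VILIlow and KO_VILIhigh, all ventilated groups above both unventilated ones. Wild type lungs showed a rise of 0.71 (log2), or 1.63-fold, per the authors' deposited table (edgeR, adjusted p = 5.77e-05). Nfkbie encodes IkB-epsilon and did not follow it, at 11.5, 13.1, 8.73, 9.23 and 14.0 CPM. Its lowest value was in ventilated wild type lungs, and the log2 difference of -0.39 per the authors' deposited table did not pass (edgeR, adjusted p = 0.567). Nfkbib, the remaining classical inhibitor and not a member, stood at 0.46 per the authors' deposited table (edgeR, adjusted p = 0.139).

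The nuclear IkB proteins act on chromatin rather than in the cytoplasm: IkB-zeta, encoded by Nfkbiz, is a co-activator of secondary response genes such as Il6, and BCL3 binds p50 and p52 dimers. Nfkbiz was at 39.4 CPM in WT_noVILI, 27.9 in KO_noVILI, 61.5 in WT_VILI, 71.9 in KO_VILIlow and 166 in KO_VILIhigh. It was lowest in unventilated knockouts and stood far above the other groups in KO_VILIhigh. The wild type rise was 0.64 per the authors' deposited table (edgeR, adjusted p = 0.000634). Bcl3 levels were 14.0, 17.6, 20.4, 36.7 and 47.1 CPM in that order, with both ventilated knockout groups above ventilated wild type. Its log2 difference of 0.54 in ventilated wild type lungs did not pass per the authors' deposited table (edgeR, adjusted p = 0.165).

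Tnfaip3 encodes A20, a ubiquitin-editing enzyme that shuts off signalling to the IkB kinase, and Tnip1 encodes its binding partner ABIN-1. Tnfaip3 was at 38.7, 41.2, 95.2, 114 and 192 CPM, so that every ventilated group was more than 90 CPM and both unventilated groups were near 40. It rose by 1.30 on the log2 scale per the authors' deposited table (edgeR, adjusted p = 7.85e-14), and ranked 117 of 21590 genes by p. Tnip1 stayed between 44.9 and 56.3 CPM in all 5 groups, and its wild type difference of -0.13 did not pass per the authors' deposited table (edgeR, adjusted p = 0.943).

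**Figure D3:**
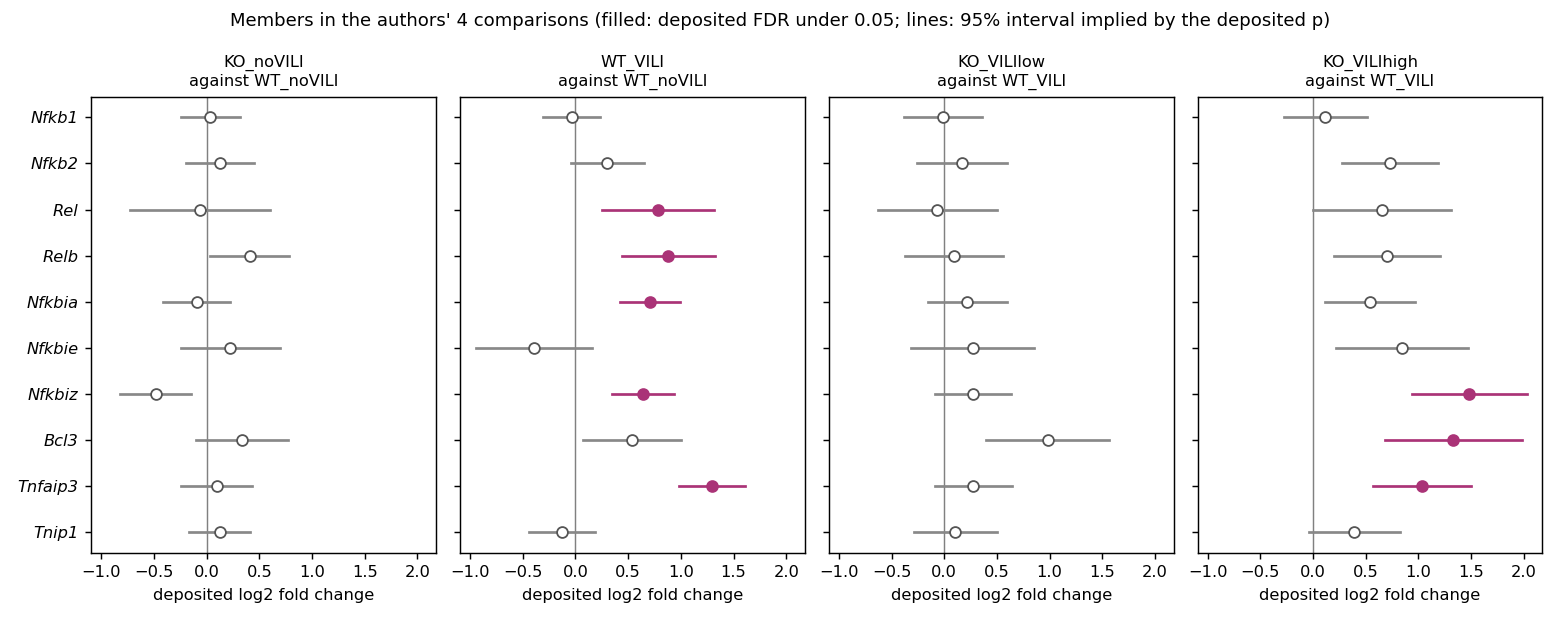
Log2 fold change of each member in the authors' 4 deposited comparisons (points; filled where the deposited adjusted p is under 0.05), with the 95 percent interval implied by the deposited p. There are 5 filled points for WT_VILI against WT_noVILI and 3 for KO_VILIhigh against WT_VILI, all to the right of 0, and none in the other panels.

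Neutrophil markers moved in the same direction as these rises. Their summed rebuilt level over 13 markers was 225 CPM in WT_noVILI, 253 in KO_noVILI, 735 in WT_VILI, 956 in KO_VILIlow and 1243 in KO_VILIhigh. In ventilated wild type lungs 11 of the 13 were called higher and none lower per the authors' deposited table. Elane, an early granule gene, stayed under 0.5 CPM in every group, and Mpo was at 0.281 to 0.885 CPM. For that comparison the deposited values called 4 of 10 B cell markers (median -0.53), 3 of 5 red blood cell markers (median -1.92), 3 of 9 endothelial markers and 2 of 12 macrophage and monocyte markers lower, and none of these higher. The part of any of these lists in the members' values was not tested.

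Without ventilation no member passed the threshold between genotypes. None of 10 was called in the authors' deposited edgeR table for KO_noVILI against WT_noVILI, where 3.36 percent of all genes were, and 2 had an unadjusted p under 0.05, against 12 percent of all genes. These were Nfkbiz at -0.48 (adjusted p = 0.0983) and Relb at 0.41 (adjusted p = 0.346) per the authors' deposited table. The members' median there was 0.11, with 7 values above 0 and 3 below. B cell markers, a cell type in which several members are used, were lower in 10 of 10 cases in that deposited table, with summed levels of 219 CPM in WT_noVILI and 79.4 CPM in KO_noVILI. Cardiac muscle markers were lower in 7 of 8 cases there, with a median of -1.39. The part of either list in the members' values was not tested.

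No member passed the threshold between KO_VILIlow and ventilated wild type lungs. This comparison and that of KO_VILIhigh share WT_VILI as their reference, which was read from the rebuilt levels and goes against the labels' file lists. In the authors' deposited edgeR table none of 10 was called, against 0.973 percent of all genes, and 1 had an unadjusted p under 0.05, against 5.43 percent of all genes. That member was Bcl3, at 0.98 on the log2 scale, or 1.98-fold, per the authors' deposited table (adjusted p = 0.0829). The other 9 lay between -0.07 for Rel and 0.28 for Tnfaip3 per the authors' deposited table, and the median of all 10 was 0.19. Between these groups 9 of 10 B cell markers were called lower (median -1.80) and 7 of 8 cardiac muscle markers higher (median 1.35) in the deposited table, and their part in the Bcl3 value was not tested.

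Ventilated knockouts with higher injury had higher transcripts of both nuclear IkB members and of A20 than ventilated wild type lungs. The authors' deposited table called 3 of 10 members higher and none lower, where 1.13 percent of all genes were called higher and 1.56 percent in either direction. Nfkbiz was higher by 1.48 on the log2 scale, or 2.80-fold (edgeR, adjusted p = 2.34e-05), per the authors' deposited table. Bcl3 was higher by 1.33, or 2.52-fold (edgeR, adjusted p = 0.00642), and Tnfaip3 by 1.04, or 2.05-fold (edgeR, adjusted p = 0.00192), per the authors' deposited table.

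All 10 log2 fold changes of this comparison were above 0, as were 49 percent of genes at a mean abundance of 3 or more log2 CPM, and their median was 0.72. At an unadjusted p under 0.05 there were 7 members, against 8.28 percent of all genes in either direction. The 4 that reached this without being called were Nfkb2 at 0.73, Relb at 0.70, Nfkbia at 0.54 and Nfkbie at 0.84 per the authors' deposited table, with adjusted p of 0.0819, 0.200, 0.304 and 0.225. Rel stood at 0.66 (adjusted p = 0.603), Tnip1 at 0.39 (adjusted p = 0.720) and Nfkb1 at 0.11 (adjusted p = 1) per the authors' deposited table. Among deposited calls, 2 of 13 neutrophil markers (median 0.90), 3 of 5 red blood cell markers (median 1.77), 1 of 8 cardiac muscle markers (median 0.84) and 2 of 12 macrophage and monocyte markers were higher, and their part in the members' values was not tested.

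High and low injury were compared among the ventilated knockouts by subtracting the deposited fold changes of the 2 tables, in which WT_VILI cancels. Standard errors were taken from the deposited p-values and the variance of WT_VILI was kept, which makes the approximate normal test conservative. All 10 differences lay above 0, with a median of 0.57, as did those of 48.2 percent of the 12696 genes tested. None passed an adjusted p of 0.05 in this approximate test, which called 0.165 percent of all genes, and 2 had an unadjusted p under 0.05, against 2.26 percent of all genes. Nfkbiz differed by 1.22 ± 0.33 (SE, approximate; adjusted p = 0.116), with a 95 percent interval of 0.56 to 1.87. Tnfaip3 differed by 0.76 ± 0.30 (SE, approximate; adjusted p = 1.00), with an interval of 0.17 to 1.35. In a further setting, chosen after seeing the data, the variance of the cancelled group was left out. Its share is not known and was set by taking both groups of each comparison to have equal variance. Under that untested assumption both passed the approximate test, with adjusted p of 0.000109 for Nfkbiz and 0.0395 for Tnfaip3. The share of all genes passing in this setting was not computed, and the 0.165 percent above belongs to the main test. Bcl3 differed by 0.35, with an interval of -0.52 to 1.22, which holds both no difference and a difference of more than 1. The summed level of B cell markers was 46.2 CPM in KO_VILIlow and 133 CPM in KO_VILIhigh, 9 of 9 tested lay above 0 and 1 passed the approximate test, and their part in the members' values was not tested.

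The response to ventilation within knockouts was derived by adding the deposited fold changes of the ventilated wild type and ventilated knockout tables and subtracting that of the unventilated knockout. In KO_VILIlow against KO_noVILI, 3 of 10 members passed the approximate test and were higher, against 2.22 percent of genes higher and 3.53 percent in either direction. They were Tnfaip3 at 1.48 ± 0.30 (SE, adjusted p = 8.82e-05), Nfkbiz at 1.39 ± 0.29 (adjusted p = 0.00019) and Nfkbia at 1.02 ± 0.29 (adjusted p = 0.0176). In KO_VILIhigh against KO_noVILI the same 3 and Bcl3 passed, 4 of 10, against 2.45 percent of genes higher and 3.88 percent in either direction. Nfkbiz stood at 2.61 ± 0.36 (SE, adjusted p = 9.83e-11), Tnfaip3 at 2.24 ± 0.33 (adjusted p = 4.13e-09), Nfkbia at 1.34 ± 0.31 (adjusted p = 0.000928) and Bcl3 at 1.53 ± 0.46 (adjusted p = 0.0287). With the variance of cancelled groups left out, under the same untested assumption of equal variances, Nfkb2, Rel and Relb passed as well in KO_VILIhigh, which made 7. The share of all genes passing in that setting was not computed, and the shares above belong to the main test. Nfkb1, Nfkbie and Tnip1 passed in neither comparison, and lay between -0.35 and 0.22. Of 9 neutrophil markers tested, 5 passed and were higher with low injury (median 2.04) and 7 with high injury (median 2.74). Cardiac muscle markers passed and were higher in 7 of 7 cases with low injury (median 2.01) and in 1 of 7 with high injury (median 1.46), and T and NK cell markers were lower in 3 of 7 cases with low injury. The part of these lists in the members' values was not tested, and sex-linked genes differed across both comparisons as well.

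Whether the genotypes differed more after ventilation than before it was tested by subtracting the unventilated genotype difference from the ventilated one, 4 different groups in each case. Sex and ventilation cannot be told apart in this contrast either, since the sex-linked genes separate the same groups. Nor can genotype and injury level where KO_VILIhigh is used, since that group was formed by the injury of its animals. With high injury, Nfkbiz was the 1 member to pass. The genotype difference of Nfkbiz was 1.97 ± 0.33 larger on the log2 scale with ventilation than without (SE, approximate normal test, adjusted p = 8.52e-07), with a 95 percent interval of 1.33 to 2.61. Of all genes tested 1.19 percent passed higher and 1.57 percent in either direction. All 10 members lay above 0, with a median of 0.63, as did 45.6 percent of genes, and 5 had an unadjusted p under 0.05, against 9.01 percent. Tnfaip3 followed at 0.94 ± 0.29 (adjusted p = 0.0719), Bcl3 at 0.99 ± 0.40 (adjusted p = 0.285) and Nfkbia at 0.63 ± 0.27 (adjusted p = 0.359), none of which passed. Nfkb2 stood at 0.60 and did not pass either (approximate normal test, adjusted p = 0.465). Before adjustment the intervals of these uncalled members do not hold 0. They were 0.36 to 1.52 for Tnfaip3, 0.21 to 1.78 for Bcl3, 0.10 to 1.17 for Nfkbia and 0.04 to 1.16 for Nfkb2. With low injury none passed in the approximate test, where 1.17 percent of all genes did, and 1 member, Nfkbiz at 0.75 ± 0.25 (adjusted p = 0.163), had an unadjusted p under 0.05, against 5.43 percent of all genes. The Nfkbiz value combines a lower level in unventilated knockouts and a higher one in KO_VILIhigh, each relative to its wild type group. In the high injury contrast 7 of 7 cardiac muscle markers tested (median 2.01), 2 of 10 B cell markers and none of 9 neutrophil markers (median 0.71; 2 at an unadjusted p under 0.05) passed the approximate test, and their part was not tested.

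**Figure D4:**
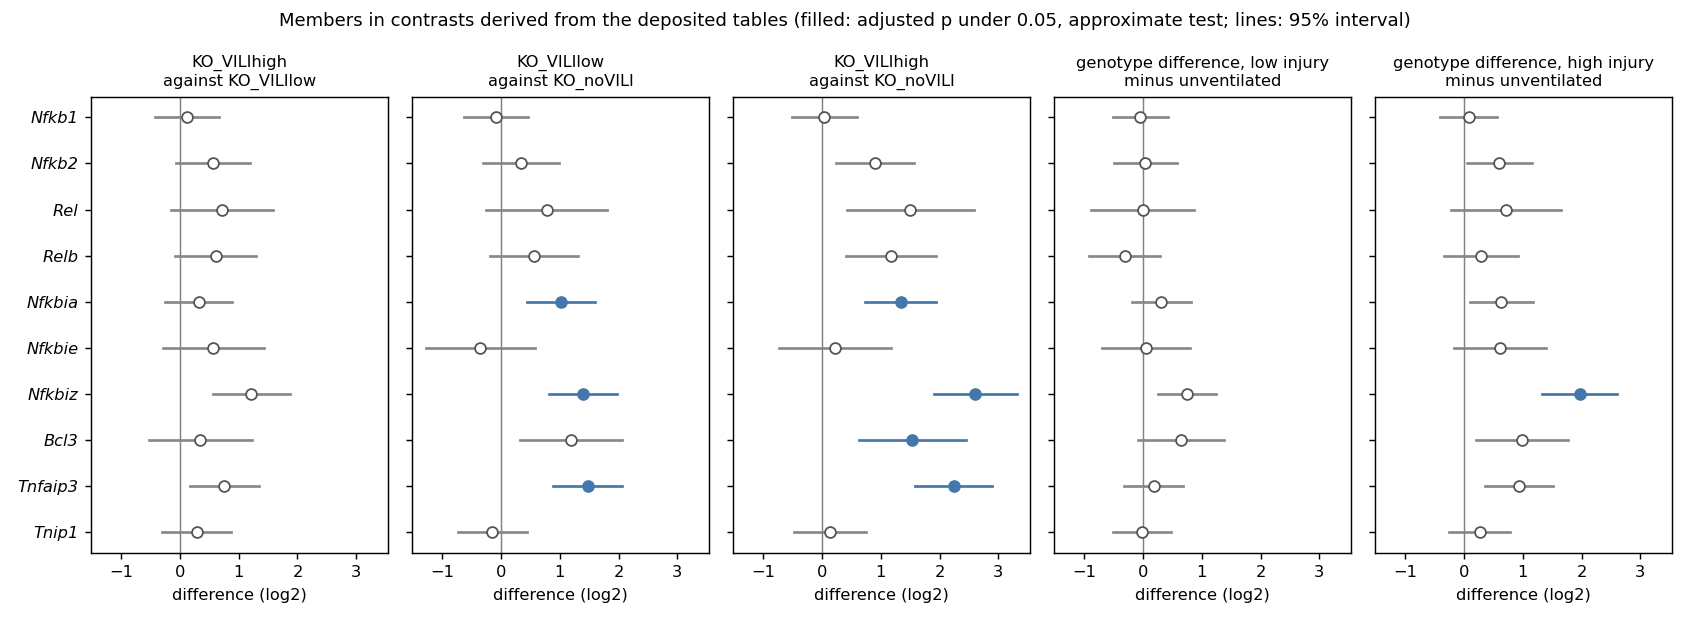
Log2 differences of the members in 5 contrasts derived from the deposited tables, with 95 percent intervals (lines); filled points have an adjusted p under 0.05 in the approximate test. Nfkbiz is filled in 3 panels, among them the genotype difference with high injury minus that without ventilation, at 1.97.

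The wider pathway was read from lists of its ligands, receptors, adaptors and kinases, further subunits and inhibitors, and target genes. For the wild type comparison the shares over all genes were 4.85 percent higher and 9.09 percent in either direction. In ventilated wild type lungs, 3 of 9 ligands were called higher and 1 lower per the authors' deposited table, with Tnf at 3.27, Il1b at 1.64 and Il1a at 1.02. Of 14 receptors 3 were higher and 1 lower there, with Tnfrsf12a, the TWEAK receptor, at 2.44, the endotoxin co-receptor Cd14 at 1.58 and Tlr2 at 1.08 per the authors' deposited table. Of 33 adaptors and kinases 5 were higher and 2 lower per the authors' deposited table, and the largest log2 fold change of the list was 0.99. Those with the smallest p were Bcl10 (0.80) and the ubiquitin ligases Traf6 (0.76) and Birc3 (0.77). The 18 further subunits and inhibitors held 2 called higher, Rela and Zc3h12a (1.03), the latter an RNase that degrades cytokine transcripts, and 1 lower, N4bp1 (-0.49), per the authors' deposited table. Of 27 target genes 10 were higher and 1 lower per the authors' deposited table, with the prostaglandin synthase Ptgs2 at 3.26, tissue factor F3 at 2.61 and the chemokine Ccl3 at 3.86.

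Between KO_VILIhigh and WT_VILI, calls were made in 4 of the 5 lists, and no test compared the lists. Of 27 target genes 13 were higher per the authors' deposited table, with the chemokines Ccl2 at 3.00, Cxcl2 at 2.99 and Ccl3 at 2.32, and their median was 1.28, against 1.13 percent of all genes called higher. None of 33 adaptors and kinases was called in that edgeR table, and their median was 0.08. Of these 33, 4 had an unadjusted p under 0.05, against 8.28 percent of all genes in either direction. With 1.56 percent of all genes called, a count of 0 among 33 is near the background. Ligands were called in 2 of 9 cases, Tnf at 2.01 and Il1b at 1.73, and receptors in 3 of 14, Cd14 at 1.67, Tlr2 at 1.19 and Tnfrsf12a at 0.93, per the authors' deposited table. Among further inhibitors Nfkbid, which encodes a nuclear IkB protein related to IkB-zeta and BCL3, was higher by 1.86 (edgeR, adjusted p = 0.0186) and Zc3h12a by 1.17 (adjusted p = 0.000681) per the authors' deposited table. Nfkbid was at 4.10, 2.20, 3.42, 4.62 and 10.5 CPM in WT_noVILI, KO_noVILI, WT_VILI, KO_VILIlow and KO_VILIhigh, lowest in unventilated knockouts and highest with high injury, the same ends as Nfkbiz. Its genotype difference was 2.67 ± 0.65 larger with ventilation and high injury than without ventilation (SE, approximate). That contrast contains the fold change for which Nfkbid was chosen, so it is no separate test of this gene. Sex and ventilation cannot be told apart in it, nor can genotype and injury level.

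In KO_VILIlow against WT_VILI, 4 of 27 target genes were called higher and none lower per the authors' deposited table, among them Tnfaip2 at 0.81 and the chemokine Cxcl1 at 0.92. Of all genes 0.973 percent were called there in either direction, and 5.43 percent had an unadjusted p under 0.05. Cd14 was the 1 receptor called, at 1.08 per the authors' deposited table, and no ligand, adaptor, kinase or further inhibitor was called by the deposited edgeR test, with 2, 1 and 0 of these lists at an unadjusted p under 0.05. Without ventilation, 6 of 27 target genes were higher and 1 lower in knockouts per the authors' deposited table, including Cxcl1 at 1.63 and the cell cycle gene Ccnd1 at 0.67. Of all genes 3.36 percent were called between the unventilated groups in either direction. In that comparison Cd14 was higher by 0.59, and the B cell survival receptor Tnfrsf13c lower at -1.55, beside the B cell markers, per the authors' deposited table.

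**Figure D5:**
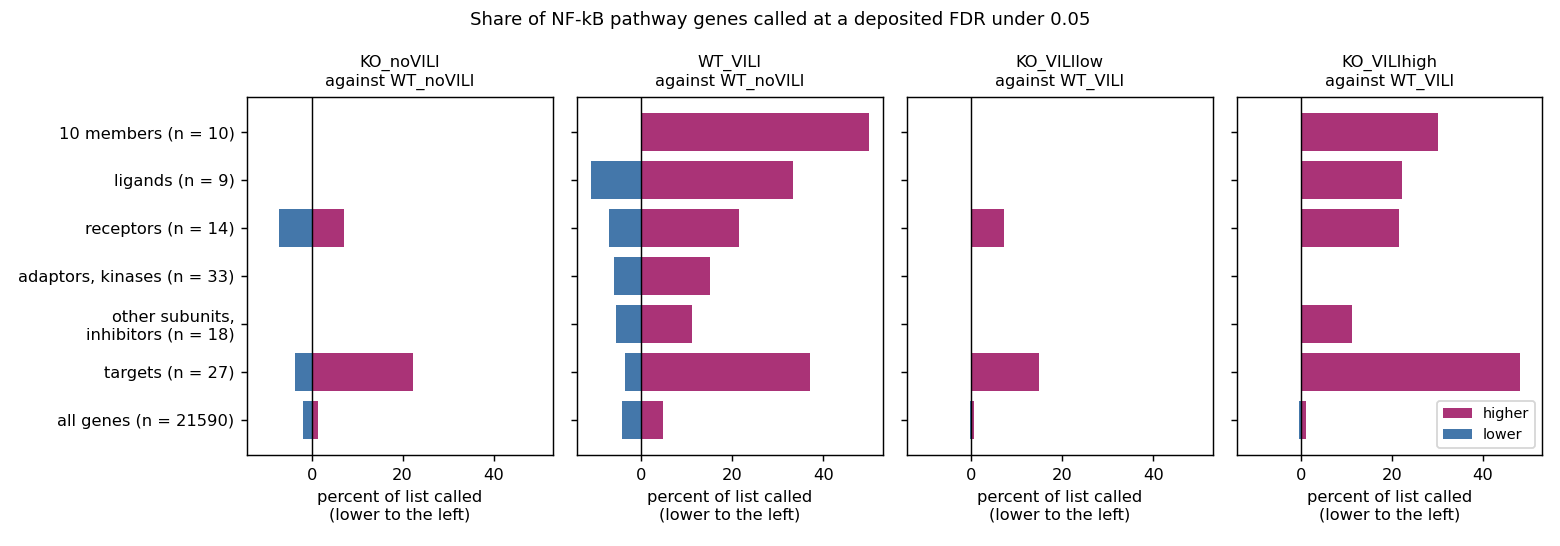
Percent of each NF-kB pathway list, of the 10 members and of all 21590 genes called higher (right) or lower (left) at a deposited adjusted p under 0.05 in the authors' 4 comparisons. For KO_VILIhigh against WT_VILI the targets hold 13 calls of 27 and the adaptors and kinases none of 33.

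Outside the pathway, the 5 genes of 10219 compared whose 4 deposited fold changes lay nearest to the members' median profile were Slc16a13, Rnd3, Klf5, Cldn7 and Ptger4. Their root mean square difference from that profile over the 4 comparisons ran from 0.0443 to 0.0803 on the log2 scale. The 4 comparisons share groups, and the median profile of 0.11, 0.59, 0.19 and 0.72 is not that of any single member.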

How the data were processed

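RNA of whole lungs was sequenced in 5 groups of mice. Per the submitters' processing notes, the authors used Bowtie 1.1.2, the mouse build mm9, R 3.0.1 and edgeR, whose version is not given in the sources used here. Per the file headers, the deposited tables give a log2 fold change (logFC), a log2 mean CPM (logCPM), a p-value and an FDR, that is an adjusted p-value, for each of 21590 genes. The count method and gene filter are not given in the sources used here. No column holds values per library, so depth, replicate spread and separate cultures or animals cannot be shown, and the authors' p-values rest on the duplicates of the design text.

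A gene was called at a deposited FDR under 0.05. Group levels solve fold change and mean CPM for 2 groups. The labels list the unventilated wild type sample, and not WT_VILI, under both ventilated knockout tables, and the headers name no reference. These tables were read against WT_VILI because the members' rebuilt reference levels differed from WT_VILI by a median of 0.0537 and 0.0462 log2, and from WT_noVILI by 0.592 and 0.576, after centring over 10562 genes, and every KO_VILIlow and KO_VILIhigh value rests on this reading. For derived contrasts each standard error was the fold change over the normal quantile of its deposited p, variances were summed, and p-values were adjusted (Benjamini-Hochberg) over genes at a mean of 1 or more log2 CPM in every table used. Genes whose values gave no standard error, such as Il1b between the unventilated groups, were left out of the contrasts concerned. The procedure was also run on simulated data, which checks the arithmetic only. Whether the deposited p-values give sound standard errors in this way was not tested.

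All 10 members are named, with Rela, Nfkbib and Cldn4 and up to 3 called genes with the smallest p of each pathway list and table. Nfkbid is followed across groups because it was called, which was chosen after its values were seen. The members and lists were chosen with earlier results of these data known. Of 14 neutrophil markers 13 were in the tables, and all members of the pathway lists were. Marker lists of T and NK cells, macrophages, endothelium, red blood cells and cardiac muscle were summed as well. Computation used scipy 1.17.1, pandas 2.3.3 and numpy 2.4.6 in Python 3.11.15, and figures matplotlib 3.10.9.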

Additional observations from a re-analysis of the deposited data

Results flagged for a closer look

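The genotype difference of Nfkbiz with ventilation and high injury exceeded that without ventilation by 1.97 on the log2 scale, a difference between conditions that passed its own approximate test (adjusted p = 8.52e-07). Nfkbiz stood at 39.4 CPM in WT_noVILI and 27.9 in KO_noVILI, and at 61.5 in WT_VILI and 166 in KO_VILIhigh. Neutrophil, B cell and cardiac muscle markers also differed between these groups, and their part was not tested. Sex-linked genes separated the ventilated from the unventilated groups, so sex and ventilation cannot be told apart in this value. KO_VILIhigh was also formed by the injury of its animals, so genotype and injury level cannot be told apart in it. With low injury the difference was 0.75 and did not pass (approximate normal test, adjusted p = 0.163), and KO_VILIlow stood at 71.9 CPM.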

How the results depend on the processing

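No paired analysis was possible because the tables hold no values per library, and for the same reason no replicate could be left out. At an adjusted p of 0.1, 1 member was called in KO_noVILI against WT_noVILI (Nfkbiz), 1 in KO_VILIlow against WT_VILI (Bcl3) and 2 in the genotype difference with high injury minus without ventilation. Under Bonferroni adjustment the calls fell from 5 to 2 in WT_VILI against WT_noVILI (Nfkbia and Tnfaip3 left), from 3 to 1 in KO_VILIhigh against WT_VILI (Nfkbiz left) and from 4 to 2 in KO_VILIhigh against KO_noVILI. The shares of all genes called at an adjusted p of 0.1 or under Bonferroni adjustment were not computed, so these counts have no background beside them. Leaving out the variance of cancelled groups, chosen after seeing the data, raised the calls to 2 in KO_VILIhigh against KO_VILIlow and to 7 in KO_VILIhigh against KO_noVILI. That setting takes both groups of a comparison to have equal variance, which was not tested. Nor was the share of all genes passing in it computed. The other 40 of 48 alternative counts stayed within 1.5 times the main count, or at 0 where that was 0. Centring on the median of expressed genes, which lay between -0.04 and 0.01, turned 2 uncalled differences near 0 in the genotype difference with low injury, Rel to 0.016 and Tnip1 to 0.00024. For single members, 546 alternative values kept direction and call, 11 passed newly and 11 no longer passed. Only centring could change a direction, since the other settings reuse the same fold change. All 30 alternative rebuilt levels of WT_VILI and WT_noVILI lay within 1 implied standard error. Depth per library is unknown, so no limit of detection can be given.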

Other observations

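The other marker lists moved as follows. Cardiac muscle markers had summed rebuilt levels of 684, 267, 446, 1088 and 742 CPM in WT_noVILI, KO_noVILI, WT_VILI, KO_VILIlow and KO_VILIhigh. In the same order T and NK cell markers summed to 101, 159, 90.4, 69.6 and 117 CPM, macrophage and monocyte markers to 5643, 6678, 6247, 6000 and 5313 CPM, endothelial markers to 4257, 5064, 4013, 4278 and 3978 CPM, and 5 red blood cell markers to 3609, 6243, 900, 3396 and 3078 CPM. The macrophage sum was mostly Lyz2, at 4666 to 5987 CPM over the groups, and hides changes of other markers, such as Marco from 5.00 to 27.8 CPM and Ccr2 from 8.83 to 45.1 CPM. Within the endothelial list Sox18 ranged from 29.6 CPM in WT_VILI to 217 CPM in KO_noVILI.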
